A study of Mus musculus with 9 samples.

Results

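The nuclear genes for the subunits of the oxidative phosphorylation complexes were followed in HT22 cells, an immortalised mouse hippocampal neuronal line. Members were taken by gene name, as entries beginning with Nduf but not Ndufaf, Uqcr, Cox4 to Cox8 or Atp5, together with Sdha, Sdhb, Sdhc and Sdhd. Names ending in -ps, which marks pseudogenes, were left out, and an expression value (FPKM, fragments scaled by gene length and by the library's total) of at least 1 was required in at least 3 of the 9 libraries. Of 100 entries with such names, 13 ended in -ps and 8 fell below the FPKM threshold, which left 79 members among 29756 entries in the table, of which 11974 passed the same threshold. They comprised 38 entries of complex I, 4 of complex II, 8 of complex III, 12 of complex IV and 17 of complex V. Of the 77 members found in GENCODE M21, 76 are protein-coding, and Ndufb4c, counted with complex I because its name meets the rule, is a processed pseudogene.

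Total RNA was sequenced in 9 libraries, 3 labelled as an intervention group, 3 as an experimental group and 3 as a control group. All 9 are labelled as the HT-22 hippocampal line, and the labels give no dose, time or passage. The title speaks of the micelle PPP8 and of hemin, which is oxidised heme. Neither agent is tied to a group in the labels, so the groups keep their label names. Whether replicates were separate cultures is not stated, and p-values therefore measure the spread between these libraries alone, which may be technical.

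Oxidative phosphorylation takes electrons from NADH at complex I and from succinate at complex II, passes them by way of coenzyme Q to complex III and by way of cytochrome c to complex IV, where oxygen is reduced. The protons pumped on the way drive complex V, the ATP synthase. Complexes I, III, IV and V combine subunits encoded in the nucleus with subunits encoded by mitochondrial DNA, whereas complex II is encoded by the nucleus alone. Neurons are known to depend heavily on this pathway for their ATP.

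Summed FPKM was between 316912 and 339943 per library, and read depth is unknown, since FPKM carries no read number. Of 10 neuronal markers, 2 passed the FPKM threshold, Tubb3 with means of 6.89 FPKM in intervention, 8.41 FPKM in experimental and 7.12 FPKM in control libraries and Syn1 with 2.83 FPKM in intervention, 3.02 FPKM in experimental and 6.01 FPKM in control libraries, and 7 were below 1 FPKM in every library. Of 5 astrocyte markers only Slc1a3 passed, with means of 2.43 FPKM in intervention, 2.10 FPKM in experimental and 5.27 FPKM in control libraries, and none of the markers of microglia and blood, oligodendrocytes or endothelium passed. The summed astrocyte markers were 2.21 to 3.49 FPKM in intervention, 2.32 to 2.55 FPKM in experimental and 5.39 to 6.27 FPKM in control libraries, and the part of these markers and of Syn1 in the results was not tested. Within the intervention group, replicate 1 was the highest library for 65 of the 79 members and replicate 2 the lowest for 59. Within the control group, replicate 2 was the highest for 59 members and replicate 3 the lowest for 60.

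On the FPKM scale, which accounts for gene length, the members differed widely in level. The median of the members' mean FPKM was 14.8 in complex I, 30.7 in complex II, 32.0 in complex III, 37.4 in complex IV and 41.2 in complex V. Atp5b, the catalytic beta subunit of the ATP synthase, was the highest member at a mean of 309 FPKM, and Ndufb2, a small complex I subunit, was the lowest. Just inside the FPKM threshold were Cox6a2, at 0.61 to 4.24 FPKM and at least 1 in 7 libraries, and Ndufb2, at 1.04 to 1.81 FPKM in its 9 libraries. Cox6a2 reached 1 FPKM in 3 intervention, 3 experimental and 1 control libraries, so it passed through the groups where it was higher, and its differences from control are a description. Just outside were Cox6c2, at 0 to 1.22 FPKM, and Ndufs6b, at 0 to 0.53 FPKM. The tissue-restricted forms Cox4i2, Cox7a1, Cox6b2, Cox7b2 and Ndufa4l2 and the copy Ndufa11b were also below it.

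Pseudogene entries bear on a few members. Ndufs5 itself had 1.34 to 2.55 FPKM, while Ndufs5-ps was listed at 50.2, 38.2 and 41.3 FPKM in intervention, 31.9, 39.4 and 36.2 FPKM in experimental and 46.2, 51.7 and 46.7 FPKM in control libraries. Ndufa12 had 9.87 to 17.4 FPKM, while Ndufa12-ps averaged 30.6 ± 2.97 FPKM in intervention, 33.2 ± 4.28 FPKM in experimental and 38.2 ± 6.56 FPKM in control libraries (SD, n = 3 each). Ndufa12 and Ndufa12-ps together came to 46.1 ± 4.41 FPKM in intervention, 43.7 ± 3.76 FPKM in experimental and 50.7 ± 6.68 FPKM in control libraries, where intervention was below control on average and the groups overlapped. Ndufs5 and Ndufs5-ps together came to 45.2 ± 6.75 FPKM in intervention, 37.6 ± 3.38 FPKM in experimental and 49.9 ± 3.42 FPKM in control libraries. Every experimental library was below every control library in this sum, which was not tested. Values of such genes are uncertain where reads of a near-identical copy were shared out. Exons of 28 of the 77 members with an annotation overlapped those of another gene, 25 of them those of a gene on the other strand, and the use of strand is not given in the sources used here.

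Promoters are shown for members with contrasting behaviour across the groups: Sdha and Sdhd of complex II, the 3 genes Atp5g3, Atp5g2 and Atp5g1 that encode the same mature c subunit of the ATP synthase, and Cox7a2l, which was higher outside the control group. Each run is the 250 bases before the start, read 5′ to 3′ on the minus strand from the RefSeq table of GRCm38.p6, at chr13:74350241-74350490 for Sdha, chr9:50603850-50604099 for Sdhd, chr2:73911327-73911576 for Atp5g3, chr15:102671048-102671297 for Atp5g2, chr11:96075632-96075881 for Atp5g1 and chr17:83514334-83514583 for Cox7a2l. Capitals mark letters of motifs tied to mitochondrial genes: NRF1 (GCGCA, any base, GCGC), ETS factors such as GABP (CCGGAAG) and ERR (TCAAGGTCA), each on either strand.
Sdha: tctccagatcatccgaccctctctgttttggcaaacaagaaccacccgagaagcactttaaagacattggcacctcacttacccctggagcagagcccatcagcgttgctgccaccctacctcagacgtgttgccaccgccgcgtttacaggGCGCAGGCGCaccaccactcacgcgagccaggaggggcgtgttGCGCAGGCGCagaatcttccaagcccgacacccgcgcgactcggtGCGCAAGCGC
Sdhd: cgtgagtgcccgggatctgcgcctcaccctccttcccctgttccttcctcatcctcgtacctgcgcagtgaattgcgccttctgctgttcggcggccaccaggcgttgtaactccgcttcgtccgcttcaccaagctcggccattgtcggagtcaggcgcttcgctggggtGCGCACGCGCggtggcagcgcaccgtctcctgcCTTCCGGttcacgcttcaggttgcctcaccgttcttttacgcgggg
Atp5g3: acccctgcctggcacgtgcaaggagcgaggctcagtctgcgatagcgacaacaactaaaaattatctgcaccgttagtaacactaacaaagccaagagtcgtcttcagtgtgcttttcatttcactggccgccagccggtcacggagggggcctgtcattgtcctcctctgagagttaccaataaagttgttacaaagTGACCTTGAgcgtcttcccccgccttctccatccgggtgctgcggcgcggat
Atp5g2: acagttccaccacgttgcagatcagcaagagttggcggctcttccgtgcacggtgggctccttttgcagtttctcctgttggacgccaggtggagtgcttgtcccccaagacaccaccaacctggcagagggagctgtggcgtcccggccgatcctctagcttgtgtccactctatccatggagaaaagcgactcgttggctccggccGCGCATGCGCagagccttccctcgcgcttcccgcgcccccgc
Atp5g1: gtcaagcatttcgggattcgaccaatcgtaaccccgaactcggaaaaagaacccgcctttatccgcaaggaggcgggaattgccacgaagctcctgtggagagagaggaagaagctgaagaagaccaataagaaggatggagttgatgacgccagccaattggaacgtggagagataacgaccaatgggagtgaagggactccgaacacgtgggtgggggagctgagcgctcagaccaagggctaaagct
Cox7a2l: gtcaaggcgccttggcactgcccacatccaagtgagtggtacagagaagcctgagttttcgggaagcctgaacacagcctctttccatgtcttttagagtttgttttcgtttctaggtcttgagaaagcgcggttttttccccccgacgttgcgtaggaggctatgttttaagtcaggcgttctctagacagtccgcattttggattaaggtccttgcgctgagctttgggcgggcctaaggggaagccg

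The Sdha window held NRF1 letters 98, 55 and 10 bases before the start. Sdhd had NRF1 letters 79 bases before its start and ETS letters 46 before, Atp5g3 had ERR letters 52 before and Atp5g2 NRF1 letters 42 before. No match was found in the windows of Atp5g1 and Cox7a2l. Past the start, and so not printed, lay ERR letters 36 bases into Sdhd and NRF1 letters 12 bases into Atp5g3. A window of 300 bases, from 250 before to 50 after the start, was available for 65 of the 79 members. Members and tested genes were counted per gene, with a match in any of the gene's windows, whereas the share of all windows is per window. NRF1 letters were in 17 of these members (26.2%), in 12.8% of the 8400 tested genes with a window and in 4.60% of all 32851 windows. ETS letters were in 17 members (26.2%), against 22.5% of tested genes and 8.86% of all windows. ERR letters were in 2 members (3.08%), against 0.298% of tested genes and 0.423% of all windows. Letters of YY1 (AAGATGGC) were in 10 members (15.4%), against 6.0% of tested genes and 2.75% of all windows, and the antioxidant response element (TGACNNNGC) was in 9 (13.8%), against 16.9% and 12.4%. Such matches describe letters in a window and not binding.

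Experimental libraries were compared with control libraries to ask how subunit transcripts differed between these labelled conditions. Of the 79 members, 45 (57%) were lower and 2 (2.53%) higher, where 50.5% of all tested entries were lower and 23.5% higher. A call means a Benjamini-Hochberg adjusted p under 0.05 in limma over all 11974 entries, and differences are on the log2(FPKM + 1) scale with their standard error. Without Ndufb4c and Cox6a2 the counts were 44 lower and 1 higher of 77. Groups did not overlap, with experimental lower, for 51 members and, with experimental higher, for 2, where the shares of all entries were 51.5% and 24.7%. The members' median difference was -0.31, against -0.21 for all tested entries. Scaling the libraries by median ratios set the median of all entries to 0.003 and gave 29 members lower and 13 higher, where 36.4% of entries were lower and 36.6% higher. As deposited and after median-ratio scaling, the share of members called lower was thus near that of all genes. Quantile normalization gave 40 lower and 4 higher, and TPM scaling 57 lower and 2 higher. Shares of all entries under these 2 scalings are not given here. Of the 47 calls as deposited, 38 held without any single library. Those of Ndufa2, Ndufa3, Ndufa12, Ndufb4c, Ndufb8, Ndufc2, Ndufs4, Ndufs6 and Uqcr11 did not. Cox6a2, which is described only, is among the 47 and the 38. In bulk RNA, fewer cells of a type and less RNA per cell cannot be told apart.

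Summed FPKM showed the order of the complexes. Complex II members summed to 123.4 ± 8.80 in experimental and 200 ± 11.4 in control libraries (SD, n = 3 each), a ratio of 0.616. The ratio was 0.751 for complex I, 0.765 for complex III and 0.767 for complex V. Complex IV summed to 770 ± 12.2 in experimental and 795 ± 39.3 in control libraries, a ratio of 0.968, and these groups overlapped. Over all 79 members the sums were 2575 ± 77.1 in experimental and 3206 ± 171 in control libraries.

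**Figure D1:**
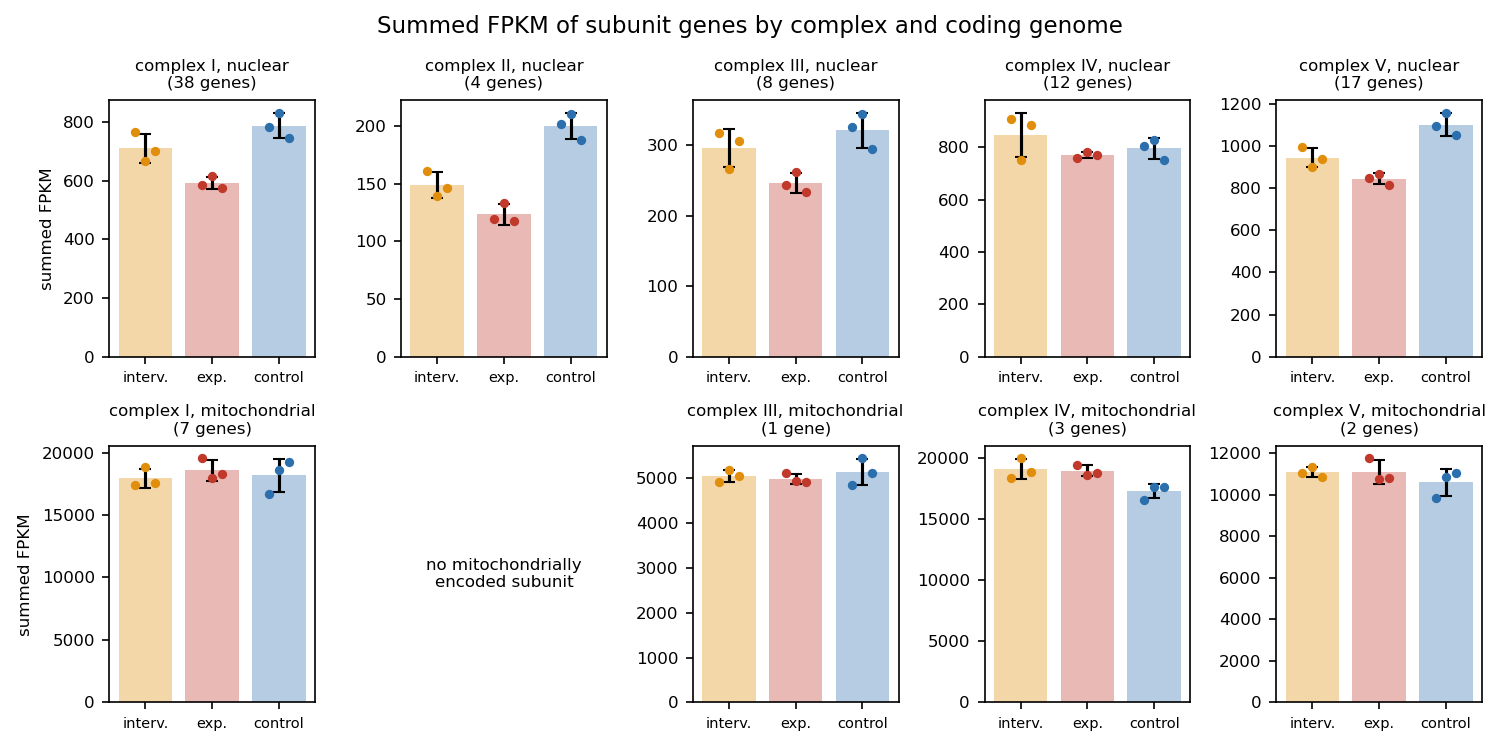
Summed FPKM of the subunit genes of each complex, nuclear (upper row) and mitochondrial (lower row), in intervention, experimental and control libraries. Bars are means, error bars SD (n = 3) and points single libraries; nuclear complex II shows the lowest experimental to control ratio, 0.616, and complex IV the highest, 0.968.

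All 4 complex II genes, which encode succinate dehydrogenase, fell in experimental libraries, with a median difference of -0.73, or -0.52 relative to all entries. Sdha, the flavoprotein that oxidises succinate, had 26.9, 29.8 and 26.0 FPKM in experimental libraries, against 56.4, 56.6 and 53.7 FPKM in control libraries. Every experimental library was far below every control library, and the difference was -0.99 ± 0.07 (SE, adjusted p = 6.92e-07). Sdhc, a membrane anchor that helps to bind coenzyme Q, had 13.9, 13.9 and 13.0 FPKM in experimental libraries, against 25.6, 29.4 and 26.1 FPKM in control libraries. These groups were likewise apart, with a difference of -0.94 ± 0.06 (adjusted p = 5.34e-07). Sdhd, the other anchor, differed by -0.51 (adjusted p = 0.000235) and Sdhb, the iron-sulfur subunit, by -0.49 (adjusted p = 0.00084), with no overlap of the groups for either. All 4 calls held under median-ratio, quantile and TPM scaling and without any single library.

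Where 50.5% of all tested entries were lower and 23.5% higher, complex I had 26 of 38 members lower (68.4%) and none higher. At an unadjusted p under 0.05 the counts were 28 and 0, and the median was -0.34. Without the pseudogene Ndufb4c, which was called lower, these were 25 of 37 lower, none higher (27 and 0 unadjusted) and a median of -0.33. The 7 nuclear core subunits, which carry the flavin and the iron-sulfur clusters, all fell, with a median of -0.63, under each of the 3 other scalings and without any single library. Of the core subunits that take electrons from NADH, Ndufv2 had 12.7, 12.5 and 9.81 FPKM in experimental libraries, against 21.8, 25.4 and 20.2 FPKM in control libraries. All 3 experimental libraries lay well below the control ones, and the difference was -0.89 ± 0.11 (adjusted p = 2.91e-05). Ndufs1, the largest of them, had 12.1, 11.97 and 11.7 FPKM in experimental libraries, against 17.7, 18.6 and 17.0 FPKM in control libraries. Its groups were narrow and apart, at -0.54 ± 0.06 (adjusted p = 1.63e-05), and Ndufv1, which binds the flavin, differed by -0.61 (adjusted p = 6.93e-06). Among the core subunits that lead electrons to coenzyme Q, Ndufs3 differed by -0.76, Ndufs7 by -0.75 and Ndufs8 by -0.51, with adjusted p between 5.28e-06 and 0.000226.

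Without Ndufb4c, 18 of the 30 accessory complex I members were lower, where 50.5% of all tested entries were, with a median of -0.29. After median-ratio scaling 10 were lower and 4 higher, where 36.4% and 36.6% of all tested entries were. Ndufv3, an accessory subunit beside the flavoprotein, at chr17:31520115-31531331 (plus strand, mm10), had 2.16, 2.30 and 2.42 FPKM in experimental libraries, against 7.03, 7.88 and 6.33 FPKM in control libraries. This was the lowest ratio of means among the 79 members, 0.324, with a difference of -1.29 ± 0.08 (adjusted p = 3.36e-07). Ndufb3, of the membrane arm, differed by -0.67 (adjusted p = 3.76e-05). Ndufb6, also of the membrane arm, had 15.3, 16.0 and 14.4 FPKM in experimental libraries, against 14.4, 16.7 and 12.1 FPKM in control libraries. These overlapped, and the difference of 0.08 was not called (adjusted p = 0.474), though it was called higher after median-ratio scaling (0.32). Ndufa12 differed by -0.22 (adjusted p = 0.0417) as deposited, a direction that was not kept after median-ratio scaling (0.01). Ndufa4, counted here by name but known as a complex IV subunit, was not called, at 36.7 ± 1.58 FPKM in experimental and 40.2 ± 5.43 FPKM in control libraries.

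In complex III, 6 of 8 members (75%, against 50.5% of all tested entries) were lower. None was higher, against 23.5% of all tested entries, and the median was -0.41 (6 lower and 0 higher at an unadjusted p under 0.05). After median-ratio scaling 3 were lower and 1 higher, after quantile normalization 6 and 0, and after TPM scaling 7 and 0. Uqcrc1, a core protein on the matrix side, had 26.1, 27.9 and 24.9 FPKM in experimental libraries, against 44.8, 44.8 and 42.8 FPKM in control libraries. The groups were widely apart, with a difference of -0.73 ± 0.06 (adjusted p = 2.14e-06). Uqcrfs1, the Rieske iron-sulfur protein, differed by -0.47 (adjusted p = 0.00118) and Uqcrb, a small subunit near the coenzyme Q site, by -0.58 (adjusted p = 0.0004). Uqcrq, another small subunit, was at 29.0 ± 0.965 FPKM in experimental and 26.8 ± 3.04 FPKM in control libraries and was not called (0.12, adjusted p = 0.327), though it was called higher after median-ratio scaling (0.36).

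Complex IV, cytochrome c oxidase, had 1 of 12 members lower (8.33%, against 50.5% of all tested entries) and 2 higher (16.7%, against 23.5%). The median was -0.08, or 0.12 relative to all entries. Without Cox6a2, 1 of 11 was lower and 1 higher. After median-ratio scaling 4 were higher and 0 lower, after quantile normalization 2 and 2, and after TPM scaling 2 and 4. The median relative to all entries turned negative after quantile normalization, at -0.058. As deposited, the count of lower members was 3 without intervention replicate 1, 4 without intervention replicate 2 and 3 without control replicate 3. Cox5a, which sits on the matrix side, had 26.4, 27.5 and 26.8 FPKM in experimental libraries, against 32.5, 35.9 and 34.9 FPKM in control libraries. Its groups did not overlap, at -0.34 ± 0.06 (adjusted p = 0.000259), and it was not called after median-ratio scaling. Cox7a2l, known for joining complexes III and IV in supercomplexes, had 109.7, 103.8 and 104.5 FPKM in experimental libraries, against 87.0, 92.6 and 84.8 FPKM in control libraries. Every experimental library was above every control library, at 0.26 ± 0.05 (adjusted p = 0.00054), and the call held under each other scaling.

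Of the complex IV isoform pairs, Cox6a2, the form of heart and skeletal muscle, had 2.04, 1.89 and 1.69 FPKM in experimental libraries, against 0.61, 1.07 and 0.69 FPKM in control libraries. The ratio of means was 2.37 and the difference 0.69 ± 0.18, given without a test because the FPKM threshold was met through the groups where Cox6a2 was higher, and its exons overlap those of Itgad on the other strand. Cox6a1, the general form, was at 130 ± 4.40 FPKM in experimental and 138 ± 2.71 FPKM in control libraries and was not called. Cox4i1, the general form of the largest nuclear subunit, was at 160 ± 4.88 FPKM in experimental and 151 ± 6.77 FPKM in control libraries, not called as deposited and called higher after median-ratio scaling (0.34). Cox6b1, Cox7a2 and Cox8a were not called either, with differences of -0.17, -0.07 and -0.14. Cox7a2 was called higher after median-ratio scaling (0.17). Cox8a was called lower after quantile normalization (-0.24, adjusted p = 0.0144) and Cox6b1 lower after TPM scaling (-0.23, adjusted p = 0.0496).

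In complex V, 8 of 17 members (47.1%, near the 50.5% of all tested entries) were lower. None was higher, against 23.5% of all tested entries, and the median was -0.30 (8 lower and 0 higher at an unadjusted p under 0.05). After median-ratio scaling 5 were lower and 4 higher, after quantile normalization 9 and 1, and after TPM scaling 11 and 0. Of the 5 genes of the F1 head, Atp5a1, the alpha subunit, had 152.8, 156.1 and 147.7 FPKM in experimental libraries, against 225.6, 239.5 and 214.4 FPKM in control libraries. The groups were far apart, with a difference of -0.57 ± 0.06 (adjusted p = 7.48e-06). Atp5c1, the gamma subunit of the central stalk, differed by -0.65 (adjusted p = 1.25e-05). Atp5b differed by -0.34 (adjusted p = 8.29e-05) and was not called after median-ratio scaling (-0.09). The delta and epsilon subunit genes Atp5d and Atp5e were not called, at -0.11 and -0.14. Atp5d was called higher after median-ratio scaling (0.14) but lower after quantile normalization (-0.16) and TPM scaling (-0.17). Atp5e was called lower after TPM scaling (-0.22). Atp5pb, of the peripheral stalk, differed by -0.59 (adjusted p = 2.28e-05).

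The 3 genes for the c subunit ring, whose promoters are printed above, received different calls. Atp5g3 had 42.5, 43.0 and 41.7 FPKM in experimental libraries, against 58.0, 60.8 and 65.9 FPKM in control libraries, a clear separation with a difference of -0.53 ± 0.06 (adjusted p = 1.48e-05). Atp5g2 had 48.0, 47.4 and 47.2 FPKM in experimental libraries, against 60.4, 59.6 and 56.6 FPKM in control libraries. It was also lower in every experimental library, at -0.30 ± 0.05 (adjusted p = 0.000357), and was not called after median-ratio scaling (-0.05). Atp5g1 had 9.66, 9.77 and 9.41 FPKM in experimental libraries, against 9.85, 10.6 and 9.63 FPKM in control libraries. The groups overlapped, and the difference of -0.05 was not called (adjusted p = 0.504), while after median-ratio scaling it was called higher (0.18). Whether the 3 differences differ from each other was not tested.

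**Figure D2:**
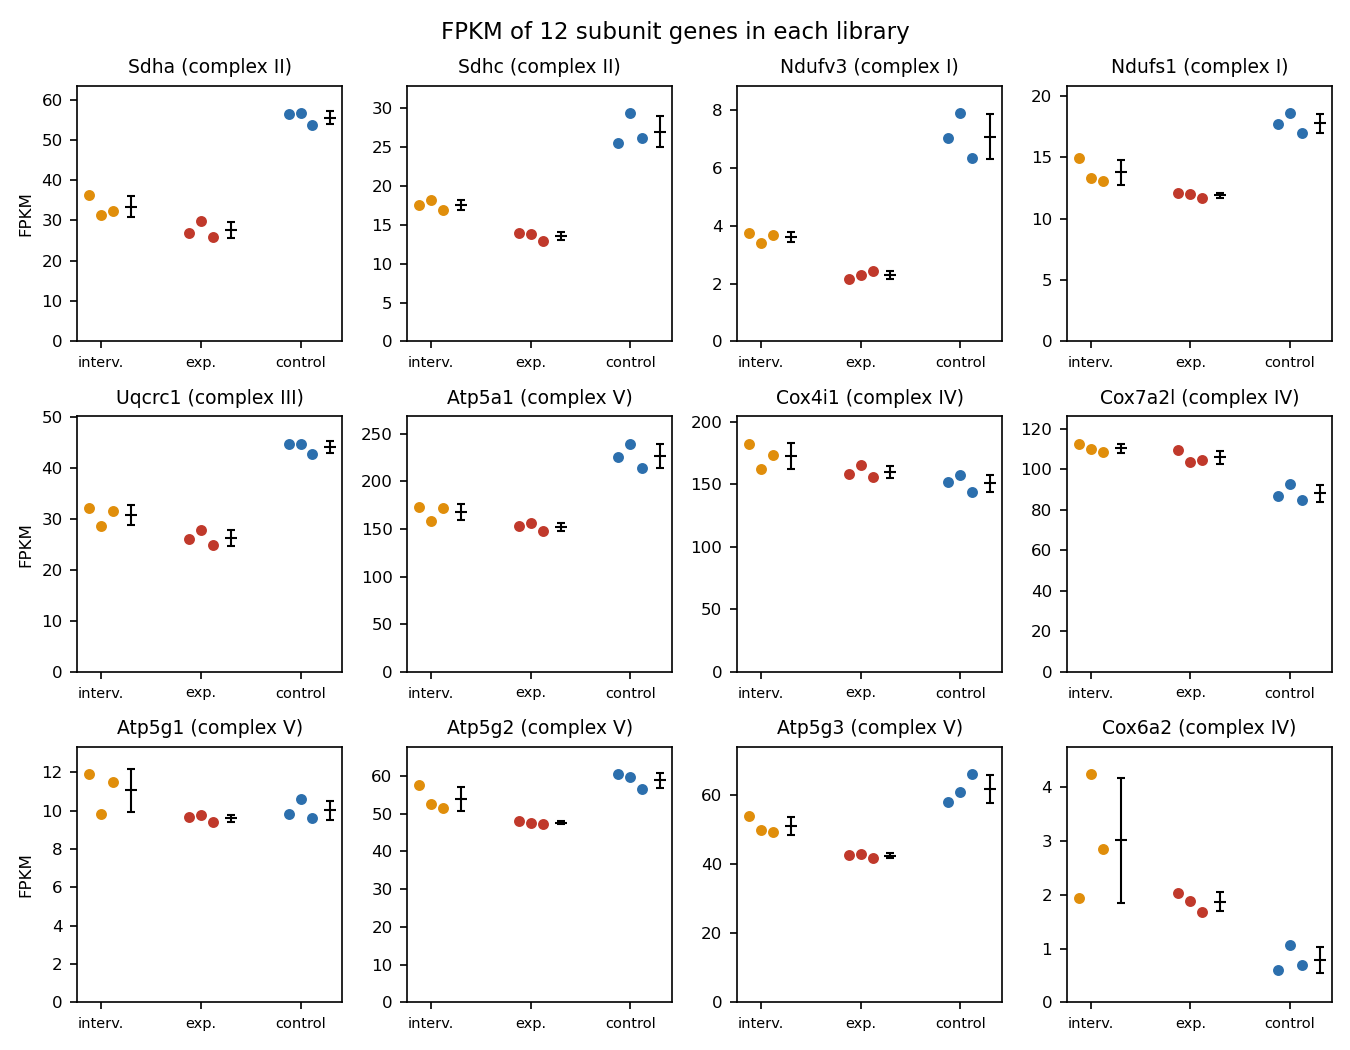
FPKM of 12 subunit genes in each intervention, experimental and control library (points), with mean and SD beside them (n = 3). Sdha and Sdhc in experimental libraries lie at about 0.5 of their control level, whereas Cox7a2l lies above all control libraries.

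The coding length of a member went along with its difference, in length classes that were chosen after the values were seen. Of 76 members with a coding length in GENCODE M21, those under 500 nt were lower in 19 of 48 genes (39.6%, median -0.22), those from 500 nt to below 1000 nt in 14 of 17 (82.4%, median -0.48), and those of at least 1000 nt in 10 of 11 (90.9%, median -0.61). Among other tested genes the shares were 54.6%, 55.7% and 55.2%, with medians of -0.26, -0.27 and -0.25. Across the 76 members Spearman's rho of coding length and difference was -0.55, and across 9954 other genes 0.001, as a description over genes measured in the same libraries. Of the complex IV members 11 of 12 are under 500 nt, whereas within complex I alone the shares lower were 11 of 21, 9 of 10 and 5 of 6 in the 3 classes. The order held under every scaling. In the length classes from 500 nt and from 1000 nt the counts were 12 to 14 and 10 to 11 when each library was left out, and under 500 nt they were 14 to 25. Library deviations moved with length as well: for members under 500 nt the median deviation from the group mean was 0.12 in intervention replicate 1, -0.15 in intervention replicate 2, 0.09 in control replicate 2 and -0.10 in control replicate 3, and for other genes of that length 0.08, -0.06, 0.06 and -0.06. The part of library make-up in the length relation was not tested.

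**Figure D3:**
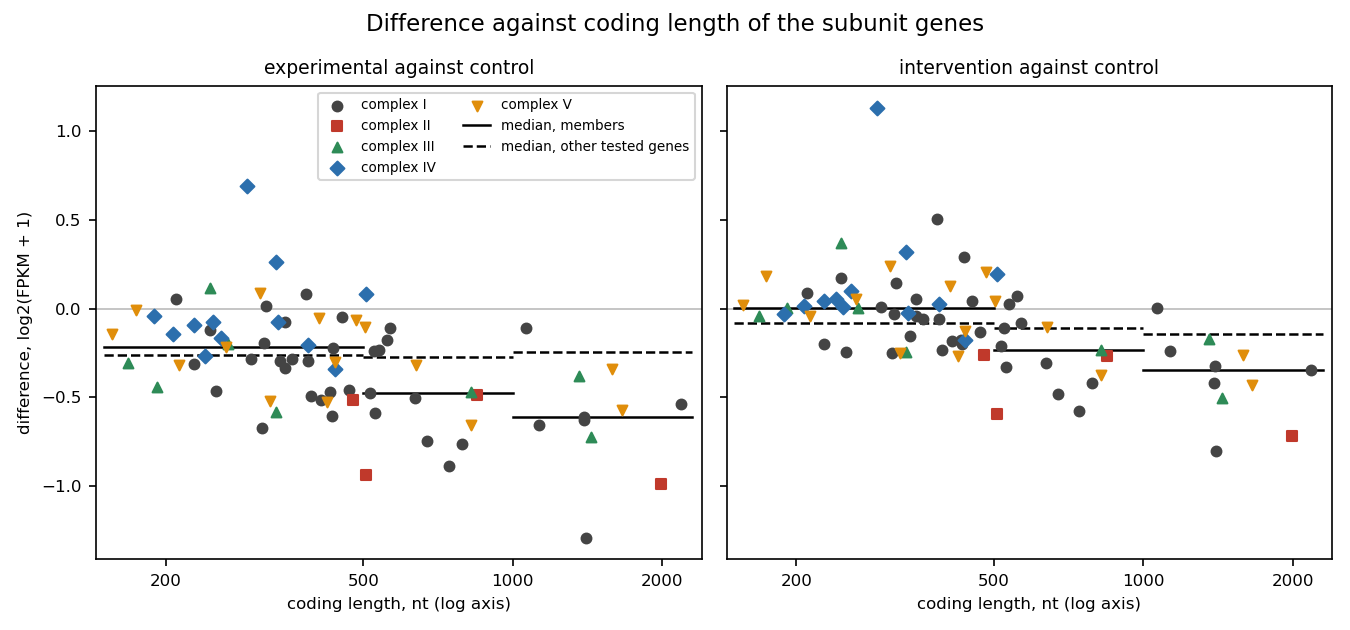
Difference of each member on the log2(FPKM + 1) scale against its coding length (log axis), for experimental against control and intervention against control libraries, with symbols for the complexes. Solid lines are members' medians per length class and dashed lines those of other tested genes; in the left panel the members' medians are -0.22, -0.48 and -0.61.

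Where 23.5% of all tested entries were higher and 50.5% lower, 1 of the 13 subunit genes of mitochondrial DNA was higher and 0 lower. The gene higher in experimental libraries was mt-Co1 (limma, adjusted p = 0.0414). At an unadjusted p under 0.05 the 13 genes also gave 1 and 0. Their summed FPKM was 53660 ± 1951 in experimental and 51230 ± 2808 in control libraries, a ratio of 1.05, and these groups overlapped. The nuclear ratio was 0.803. The 13 genes and the gene lists that follow were counted as deposited, and no counts after other scalings are given for them. All entries with names beginning with mt-, not only these subunit genes, made up 16.5% to 18.3% of summed FPKM per library.

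Genes that build or supply the complexes were described by counts. Of complex I assembly factors 12 of 15 were lower and 2 higher, with Ndufaf7 at -1.23 and Dmac1 at -0.89. All 3 tested complex II assembly factors were lower, with Sdhaf4 at -1.14, as were all 4 of complex V, with Tmem70 at -0.76. Of complex III assembly factors 3 of 5 were lower, and of complex IV assembly factors 15 of 21 were lower and 3 higher, with Coa3 at -1.17 and Lrpprc, which stabilises mitochondrial mRNA, at 0.37. Of genes for electron carriers and coenzyme Q synthesis 14 of 17 were lower and 1 higher, with Coq9 at -1.21 and Coq10a at -1.26. The background for these counts is the 50.5% lower and 23.5% higher of all entries.

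Of 13 transcriptional regulators of mitochondrial genes 5 were higher and 4 lower, where 23.5% of all tested entries were higher and 50.5% lower. Ppargc1a, the coactivator PGC-1 alpha, had 5.46, 5.87 and 5.66 FPKM in experimental libraries, against 11.1, 10.4 and 10.96 FPKM in control libraries. It was far lower in every experimental library, at -0.83 (adjusted p = 7.19e-07). Tfb2m, a mitochondrial transcription factor, differed by 1.03 and Myc by 0.94.

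Intervention libraries were compared with experimental libraries to ask how the transcripts differed between the remaining labelled conditions. All 79 members had a positive difference, as had 71.4% of all tested entries, with a median of 0.24 against 0.10 for all tested entries. After median-ratio scaling 70 members were positive and 9 negative, and after quantile normalization 76 and 3. Of these, 27 (34.2%) were called higher and 0 lower, and at an unadjusted p under 0.05 the counts were 54 and 0. Among all entries 15.9% were called higher and 3.6% lower. Groups did not overlap, with intervention higher, for 40 members and, with intervention lower, for 0, where the shares of all entries were 33.7% and 8.79%. The calls rested on few libraries: the count was 0 without experimental replicate 1, 0 without experimental replicate 3 and 0 without intervention replicate 1, with 41, 36 and 31 members higher at an unadjusted p under 0.05. It was 12 without intervention replicate 3 and 43 without intervention replicate 2, and none of the 27 members was called in all 9 such fits. Median-ratio scaling gave 8 higher and 0 lower, where 4.74% of entries were higher and 7.9% lower. Of the 27 calls, 7 held under median-ratio, quantile and TPM scaling.

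Called higher were 16 of 38 complex I, 2 of 4 complex II, 4 of 8 complex III and 5 of 17 complex V members. Of 12 complex IV members 0 were called, and 5 were higher at an unadjusted p under 0.05. Among all tested entries 15.9% were called higher. Ndufa12, an accessory complex I subunit, had 17.4, 13.7 and 15.4 FPKM in intervention libraries, against 9.87, 10.9 and 10.8 FPKM in experimental libraries. Every intervention library was above every experimental one, at 0.51 ± 0.09 (adjusted p = 0.0151). Summed with Ndufa12-ps the groups overlapped, at 48.8, 41.0 and 48.5 FPKM in intervention and 47.7, 43.2 and 40.3 FPKM in experimental libraries. Ndufv3 had 3.75, 3.41 and 3.68 FPKM in intervention libraries, against 2.16, 2.30 and 2.42 FPKM in experimental libraries. The groups did not overlap, at 0.49 ± 0.08 (adjusted p = 0.0151), and Ndufb3 (0.43, adjusted p = 0.0161) was called as well. Ndufb6 (0.42, adjusted p = 0.0245) was not called after median-ratio scaling (0.31, adjusted p = 0.0604). Sdhc had 17.6, 18.3 and 16.9 FPKM in intervention libraries, against 13.9, 13.9 and 13.0 FPKM in experimental libraries. That separation gave 0.35 ± 0.06 (adjusted p = 0.0153), and Sdha differed by 0.27 (adjusted p = 0.0268). Sdha was not called once libraries were scaled by median ratios (0.155, adjusted p = 0.0954).

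In complex III, Uqcr10, a small subunit, was at 30.4 ± 2.63 FPKM in intervention and 22.2 ± 2.84 FPKM in experimental libraries (0.44, adjusted p = 0.0222), and Uqcrc1 was called at 0.22 (adjusted p = 0.0315), though not once libraries were scaled by median ratios (0.11, adjusted p = 0.179). In complex V, Atp5g3 had 54.0, 49.7 and 49.3 FPKM in intervention libraries, against 42.5, 43.0 and 41.7 FPKM in experimental libraries, with no overlap (0.26, adjusted p = 0.0194). Atp5c1 differed by 0.28 (adjusted p = 0.0264) and Atp5h, of the peripheral stalk, by 0.27 (adjusted p = 0.0487). After median-ratio scaling none of these 3 complex V genes was called, at 0.145 for Atp5g3 (adjusted p = 0.112), 0.16 for Atp5c1 (adjusted p = 0.123) and 0.15 for Atp5h (adjusted p = 0.199). Summed FPKM was 711 ± 49.2 in intervention and 592 ± 20.4 in experimental libraries for complex I, and 847 ± 85.2 in intervention and 770 ± 12.2 in experimental libraries for complex IV. Assembly factors were called higher in 4 of 15 genes for complex I, 2 of 3 for complex II and 0 of 5 for complex III. For complex IV 5 of 21 were higher and for complex V 1 of 4, and none in any list was lower. At an unadjusted p under 0.05, 11, 2, 1, 10 and 4 were higher and 0 lower. Among all tested entries 15.9% were called higher and 3.6% lower. Of the mitochondrially encoded genes 0 were called in either direction in limma, and 0 had an unadjusted p under 0.05.

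Intervention libraries were also compared with control libraries, which shares libraries with both comparisons above. Of the 79 members, 27 (34.2%) were lower and 7 (8.86%) higher, where 41.1% of all entries were lower and 24.1% higher. Without Ndufb4c and Cox6a2 the counts were 27 lower and 6 higher of 77. Groups did not overlap, with intervention lower, for 25 members and, with intervention higher, for 7, where the shares of all entries were 42.9% and 25.8%. The median difference was -0.06, against -0.10 for all entries. Median-ratio scaling gave 15 lower and 17 higher, where 32.4% of entries were lower and 32.7% higher. By complex, 14 of 38 complex I members, 4 of 4 complex II, 2 of 8 complex III, 1 of 12 complex IV and 6 of 17 complex V members were lower. The complex II count was 2 without intervention replicate 2, control replicate 1 or control replicate 2, and the complex III count was 4 without intervention replicate 1 or control replicate 3 and 1 without experimental replicate 1, intervention replicate 2 or 3 or control replicate 1 or 2. The complex IV count was 0 without intervention replicate 2. Of the 34 calls, 23 held without any single library, and those of Ndufa6, Ndufa8, Ndufa12, Ndufa13, Ndufb3, Sdhb, Sdhd, Uqcrc2, Cox5a, Atp5g2 and Atp5l did not. Cox6a2, which is described only, is among the 34 and the 23. All 7 core complex I members were among the lower ones, 6 of them after median-ratio scaling.

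Ndufv3 again had the most negative difference, -0.80 ± 0.08 (adjusted p = 1.07e-05). Sdha had 36.4, 31.4 and 32.5 FPKM in intervention libraries, against 56.4, 56.6 and 53.7 FPKM in control libraries. No intervention library came near the control ones, and the difference was -0.72 ± 0.07 (adjusted p = 9.41e-06). Sdhc differed by -0.59 (adjusted p = 1.78e-05), Uqcrc1 by -0.50 (adjusted p = 4.19e-05) and Atp5a1 by -0.43 (adjusted p = 8.17e-05). Sdhd and Sdhb differed by -0.26 and -0.27 (adjusted p = 0.0175 and 0.0276), calls that were lost after median-ratio scaling, and the Sdhb groups overlapped.

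Of the 7 members called higher in intervention than in control libraries, 6 were Ndufa12, Ndufb6, Uqcrq, Cox4i1, Cox7a2l and Atp5l. The other was Cox6a2, whose call is not used because it met the FPKM threshold through the groups where it was higher. Ndufb6 had 22.2, 21.2 and 18.9 FPKM in intervention libraries, against 14.4, 16.7 and 12.1 FPKM in control libraries. It was above control in every intervention library, at 0.51 ± 0.10 (adjusted p = 0.0015). Cox7a2l had 112.6, 109.9 and 108.4 FPKM in intervention libraries, against 87.0, 92.6 and 84.8 FPKM in control libraries. That difference was 0.32 ± 0.05 (adjusted p = 0.000198), and the call held under each other scaling. For Cox6a2, at 1.94, 4.24 and 2.86 FPKM in intervention libraries, the difference was 1.13 ± 0.18, again given without a test. Uqcrq differed by 0.37 (adjusted p = 0.00956). Cox4i1 differed by 0.19 (adjusted p = 0.0116), a call lost after quantile normalization (0.10, adjusted p = 0.0697) and TPM scaling (0.12, adjusted p = 0.073), and that of Atp5l was lost after TPM scaling (0.19, adjusted p = 0.102). Ndufa12 differed by 0.29 as deposited, while its sum with Ndufa12-ps, given above, was lower in intervention than in control on average. Uqcr10 stood at 30.4 FPKM in both groups, with a difference of 0.00 (adjusted p = 0.983).

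**Figure D4:**
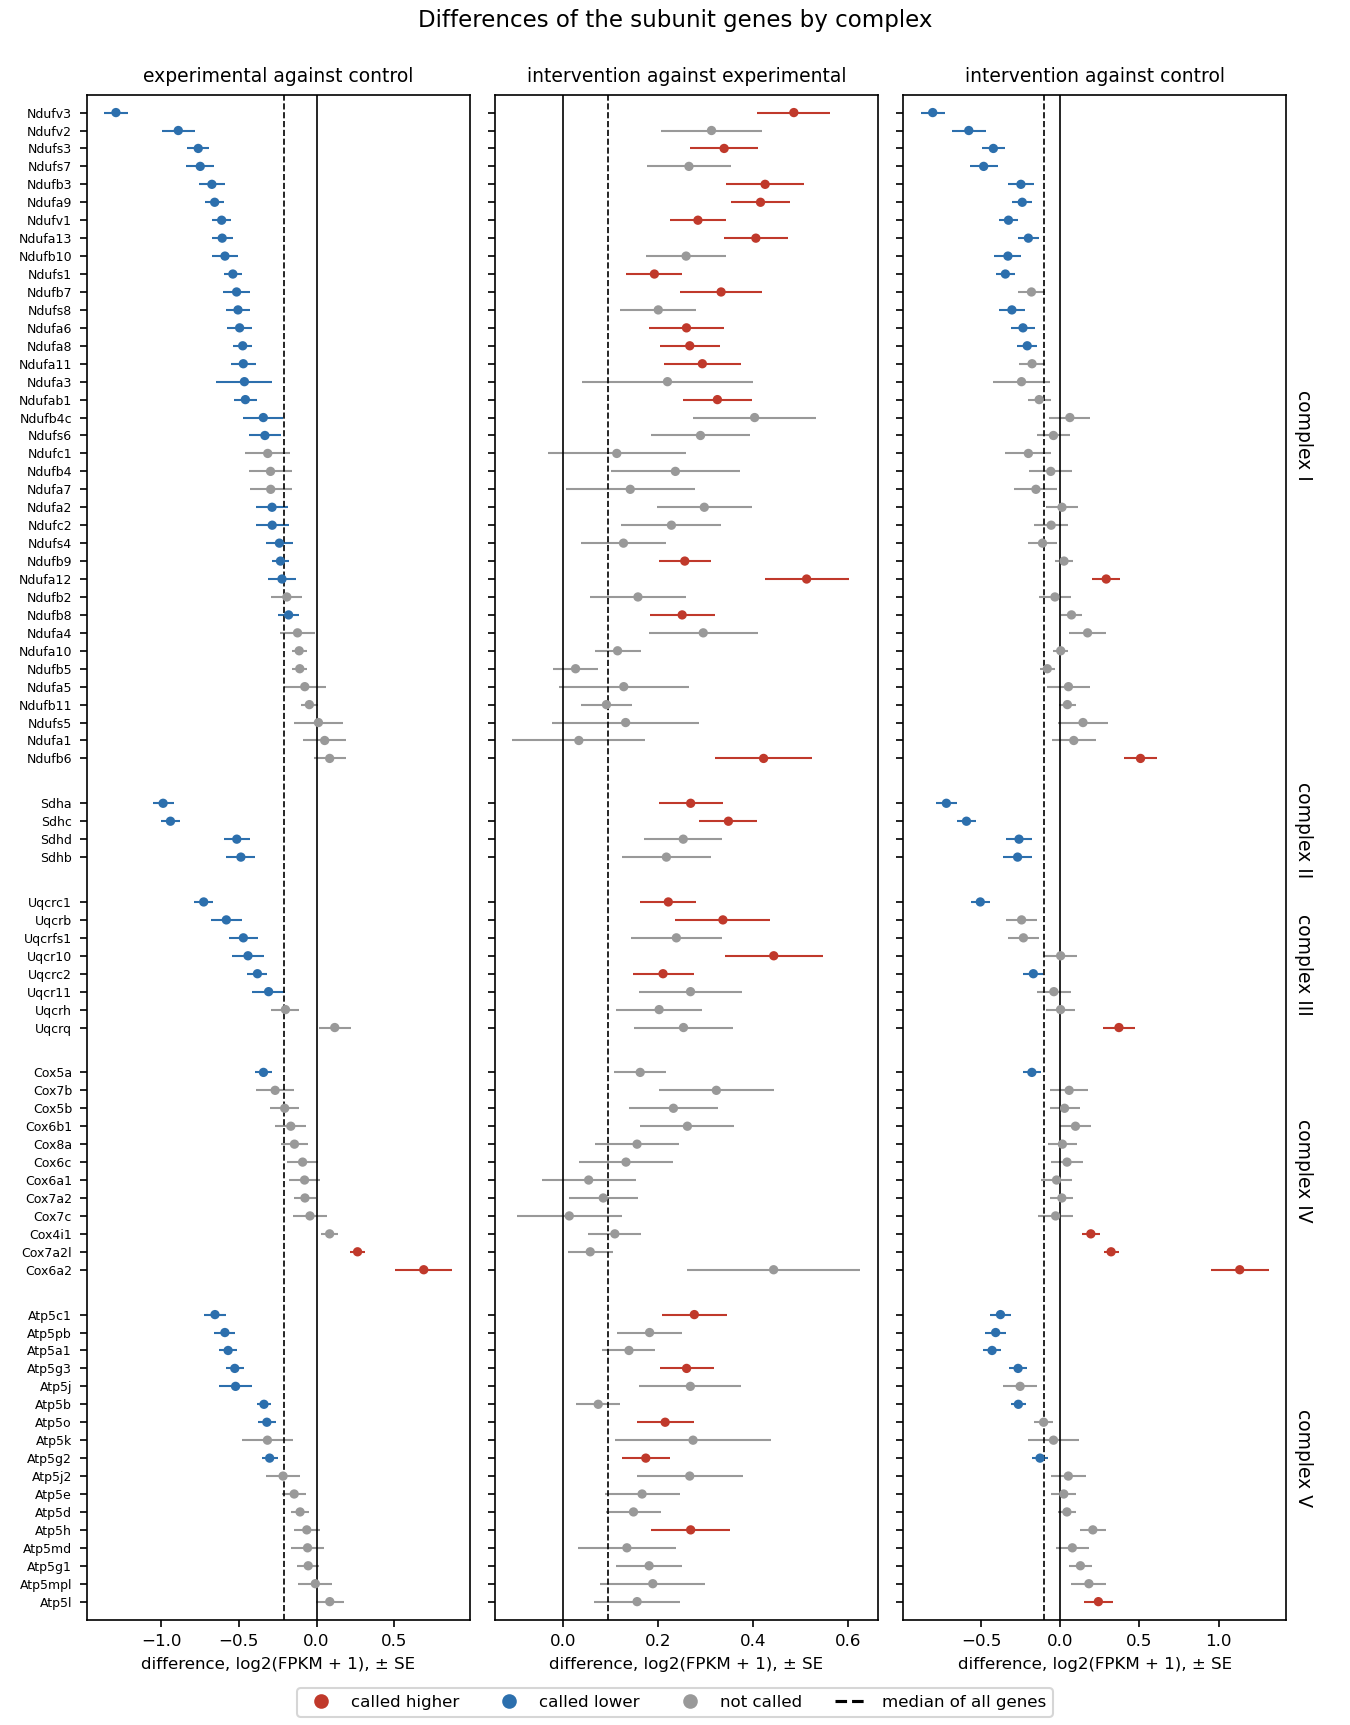
Difference of the members, all but 1 of the 79, in the 3 comparisons on the log2(FPKM + 1) scale, with SE, grouped by complex and ordered by experimental against control. Blue marks members called lower and red members called higher, and the dashed line is the median of all tested entries, at -0.21, 0.10 and -0.10 from left to right.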

How the data were processed

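Total RNA of HT22 cells was sequenced in 3 libraries per group. The FPKM table that the authors deposited has 1 value per entry and library, with 2 decimals. The build is mm10, per the submitters' processing notes. The aligner, counter, annotation and strand setting were not given in those sources. Depth is unknown, so precision comes from the replicate spread alone.

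Values were transformed to log2(FPKM + 1), which understates changes of low genes. Entries with FPKM of at least 1 in at least 3 libraries were fitted in R 4.3.3 with the linear models of limma 3.58.1 and moderated variances that follow the mean level. The 9 libraries entered 1 fit, without covariates. A call is a 2-sided Benjamini-Hochberg adjusted p under 0.05. The fit was run on simulated data with normal noise and few changed entries, balanced in direction. In these data most entries were called in experimental against control, so that run does not bear on the choice of scaling.

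The members, gene lists and length classes were chosen with earlier results of these data known. Named members were, per complex and comparison, up to 3 called members in each direction with the largest differences and no group overlap, together with set subunit and isoform genes, and per list up to 3 genes with the smallest adjusted p. Members named as lying at the FPKM threshold or as all of a count fall outside that rule. Alternatives were the pseudocount, the filter, median-ratio, quantile and TPM scaling, no trend, 2 groups only, a replicate block and leaving out each library. Counts without Ndufb4c and Cox6a2 were added after the values were seen. Coding lengths come from GENCODE M21 and promoters from RefSeq. The values of 1 member are not reported here, although it is part of the counts.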

Additional observations from a re-analysis of the deposited data

How the results depend on the processing

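Settings are read against the values as reported. Experimental against control: 2 members higher became 1 with a mean FPKM of at least 5, 13 after median-ratio scaling and 4 after quantile normalization. The 45 lower became 29 after median-ratio scaling, 40 after quantile normalization and 57 after TPM scaling. Leaving out each library gave 2 higher and 37 to 51 lower. Intervention against experimental: 27 higher became 1 with no filter (46 at an unadjusted p under 0.05), 8 after median-ratio scaling, 9 after quantile normalization and 0 to 43 without single libraries. Intervention against control: 7 higher and 27 lower became 17 and 15 after median-ratio scaling, 8 and 28 after quantile normalization. TPM scaling gave 5 and 35, and fits without single libraries 5 to 10 and 19 to 32.

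Median differences relative to all entries, by complex I to V, moved with no filter, where the median of all entries lies near 0. They were -0.33, -0.72, -0.40, -0.076 and -0.29 in experimental against control, 0.26, 0.26, 0.24, 0.14 and 0.18 in intervention against experimental, and for I, II, III and V -0.14, -0.43, -0.10 and -0.037 in intervention against control. With a mean of at least 5 they were -0.26 (I) and 0.051 (IV) in experimental and -0.055 (V) in intervention libraries against control. After quantile normalization they were -0.68 (II), -0.35 (III) and -0.058 (IV), and -0.45 (II), -0.13 (III) and -0.058 (V) in the same order of comparisons. Without single libraries experimental against control ran from -0.20 to -0.10 (I) and from -0.10 to 0.047 (V, the highest without control replicate 2), and intervention against control from 0.011 to 0.17 (V, the highest without control replicate 2).

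Median-ratio scaling reversed signs, with the cause not tested. Members with a positive difference rose from 8 to 31 in experimental against control and from 32 to 44 in intervention against control. Of the members that changed sign, only named ones called as deposited or after this scaling are listed here. In experimental against control these were Atp5d (0.14 after scaling), Atp5g1 (0.18), Atp5h (0.19), Cox7a2 (0.17) and Ndufa12 (0.01). In intervention against control it was Atp5g2 (0.0054).

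Replicate numbers are shared across groups, but same-numbered libraries deviated together only with r of -0.18 to 0.11, so they were not taken as pairs. With the replicate block, 2 members were higher and 42 lower in experimental against control, 19 higher in intervention against experimental, and 7 higher and 27 lower in intervention against control. Read depth, unknown here, limits the members of low FPKM most.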

Other observations

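Other genes of the pathway in intervention against experimental libraries were described by counts as well. Of 17 genes for electron carriers and coenzyme Q synthesis 6 were higher and 0 lower, where 15.9% of all entries were higher and 3.6% lower (11 and 0 at an unadjusted p under 0.05), with Coq9 at 5.01 ± 0.204 FPKM in intervention and 3.44 ± 0.447 FPKM in experimental libraries. Of 13 transcriptional regulators 1 was higher, Ppargc1a (0.27, adjusted p = 0.0176), and 2 were lower, Myc (-0.26, adjusted p = 0.0404) and Pprc1, a relative of Ppargc1a (-0.33, adjusted p = 0.0315), which was named after its values were seen.

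In intervention against control libraries 7 of 15 complex I assembly factors were lower and 2 higher, 1 of 3 for complex II, 2 of 5 for complex III and 3 of 4 for complex V were lower, and 9 of 21 for complex IV were lower and 5 higher. Of electron carrier and coenzyme Q genes 12 of 17 were lower and 3 higher. The shares of all entries were 41.1% lower and 24.1% higher, near those of the complex I and complex IV assembly factors.

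Of the 49 members whose exons overlap no other gene, 25 (51%) were lower and 1 higher in experimental against control libraries. Among the 28 with an overlap 19 (67.9%) were lower and 1 higher. The shares of all tested entries were 50.5% lower, near that of the 49 members, and 23.5% higher. The entry Ndufs5-ps differed by -0.42 (adjusted p = 0.00401), and was not called after median-ratio scaling (-0.17, adjusted p = 0.109).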
